A study of Mus musculus with 9 samples.

Results

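A set of 8 genes that mark excitatory neurons of the mouse cortex and hippocampus was followed in forebrain arrays of mice given clozapine, haloperidol or no drug. The genes were Tbr1, Neurod2, Neurod6, Nr4a2, Camk2a, Nrgn, Crym and Ccn3, listed on the array under these symbols or older ones, and all 8 of the 8251 singly named genes of the array that bear these names were taken, with 10 probe sets in all. Each of the 9 arrays (Affymetrix U74Av2) held RNA of a single male C57BL mouse, without pooling, and each treatment had 3 arrays. Clozapine, an atypical antipsychotic, was given at 12 mg/kg/day and haloperidol, an older dopamine receptor blocker, at 1.6 mg/kg/day, both in the drinking water for 4 weeks, while control mice were untreated. The mice were 4 weeks old per the labels, and all were caged alone and had 2 weeks to acclimatise. The 9 mice were selected from 30. The titles name the right hemisphere and the tissue entry the left, so the side was not settled. RNA came from a whole forebrain hemisphere, in which cortex and hippocampus lie beside striatum and other regions.

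Excitatory neurons of the cortex and hippocampus, mostly pyramidal and granule cells, release glutamate and send long axons to other regions. Transcription factors such as Neurod2, Neurod6 and Tbr1 set up and maintain their identity, and their dendritic spines are rich in calcium sensors, above all calmodulin and the kinase it activates, CaM kinase II. That kinase is central to long-term potentiation, the lasting strengthening of synapses that memory is thought to rest on. Values below are log2 signals of the deposited GCRMA table, in which a step of 1 is a doubling, and levels of different genes are not set against each other because each probe set has its own response.

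Promoter sequences are shown for 3 members whose values followed different courses across the arrays. They are the 250 bases before the annotated start of each gene, from RefSeq on GRCm38.p6, and 5 of the 8 members, Nr4a2, Nrgn, Neurod6, Neurod2 and Tbr1, were matched in its promoter table. Capitals mark 3 kinds of short motif, searched on both strands: the E-box CANNTG, which proteins of the NeuroD type bind best as CAGATG, the core TGACG of the cAMP response element, and the TATA box TATAAA. No marked motif overlaps another in these windows.
Nr4a2, chr2:57124004-57124253, minus strand: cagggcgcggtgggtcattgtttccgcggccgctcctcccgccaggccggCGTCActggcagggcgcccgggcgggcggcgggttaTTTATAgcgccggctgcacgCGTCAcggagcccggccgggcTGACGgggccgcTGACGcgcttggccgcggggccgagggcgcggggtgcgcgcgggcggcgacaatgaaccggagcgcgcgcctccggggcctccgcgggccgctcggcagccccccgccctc
Nrgn, chr9:37552746-37552995, minus strand: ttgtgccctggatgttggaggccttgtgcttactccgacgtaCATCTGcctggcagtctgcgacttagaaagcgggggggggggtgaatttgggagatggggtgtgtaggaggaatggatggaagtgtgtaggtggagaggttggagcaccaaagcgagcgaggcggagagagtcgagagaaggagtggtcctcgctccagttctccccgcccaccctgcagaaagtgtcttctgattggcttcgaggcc
Tbr1, chr2:61804203-61804452, plus strand: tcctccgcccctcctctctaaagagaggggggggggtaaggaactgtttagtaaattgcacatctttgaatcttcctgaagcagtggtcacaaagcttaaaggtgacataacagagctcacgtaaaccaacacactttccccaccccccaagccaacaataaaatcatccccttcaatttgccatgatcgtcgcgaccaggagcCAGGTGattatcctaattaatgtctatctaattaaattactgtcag

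The Nr4a2 window held 4 cores of the cAMP response element and 1 TATA box, and no E-box. Among 32851 promoter windows of this length, 17.8% held such a core at all, 0.137% held 4 or more, and 12.4% held a TATA box. These shares were not matched for base content: G and C made up 80.0% of the Nr4a2 window, against a median of 52.4% over all windows. The Nrgn window held 1 E-box, of the type CAGATG read on the other strand, which 14.4% of windows held. The Tbr1 window held 1 E-box of another type, where 66.2% of windows held an E-box of any type. These are matches of letters, and no binding was measured.

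Of the marker list for the tissue, 7 of 10 markers of cortical and hippocampal excitatory neurons were on the array, and 6 of them lay above the filter on dim probe sets, an average log2 signal of 3.448. The 7 are 5 of the members, Camk2a, Nrgn, Neurod6, Neurod2 and Tbr1, with Icam5 and Nptx1, so the check is mostly the members themselves. Neurod2, a basic helix-loop-helix factor of maturing and adult excitatory neurons, was the exception. Its signal was 1.15, 1.21 and 1.13 in clozapine arrays and 1.10, 1.08 and 1.15 in haloperidol arrays, against 1.16, 1.13 and 1.14 in control arrays. These values sit at the floor of the table, where 2.05% of probe sets had a lower average, so Neurod2 was not measured above background and entered no test. The other 7 members were tested.

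No member passed the test in any comparison. With clozapine against control, limma called 0 of 7 members and 0 of 7453 probe sets (0%) at an adjusted p of 0.05, and 1 member, Ccn3, had an unadjusted p under 0.05, beside 70 probe sets. With haloperidol against control it called 0 of 7 and 0 of 7453 (0%), with 2 members, Ccn3 and Nr4a2, and 680 probe sets under an unadjusted 0.05. Between clozapine and haloperidol it called 0 of 7 and 0 of 7453 (0%), with 0 members and 271 probe sets under it. With 3 arrays in each group, the lowest two-sided p that exact permutation allows is 0.1. Most members had higher means with either drug than in controls: 6 of 7 with clozapine, at a median of 0.33 log2 units, and 5 of 7 with haloperidol, at a median of 0.33. Over all tested probe sets the medians were -0.00 and -0.02, with 49.5% and 46.4% above. Both comparisons use the same 3 control arrays. The members were chosen with earlier results of these data known, so these counts and medians are descriptions only. Without control replicate 3 no member had an unadjusted p under 0.05 in either comparison, beside 196 probe sets with clozapine and 670 with haloperidol, and limma again called 0 of them after adjustment. The counts above control were then again 6 and 5 of 7 and both medians were 0.28, beside -0.01 and -0.05 over all probe sets.

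**Figure D1:**
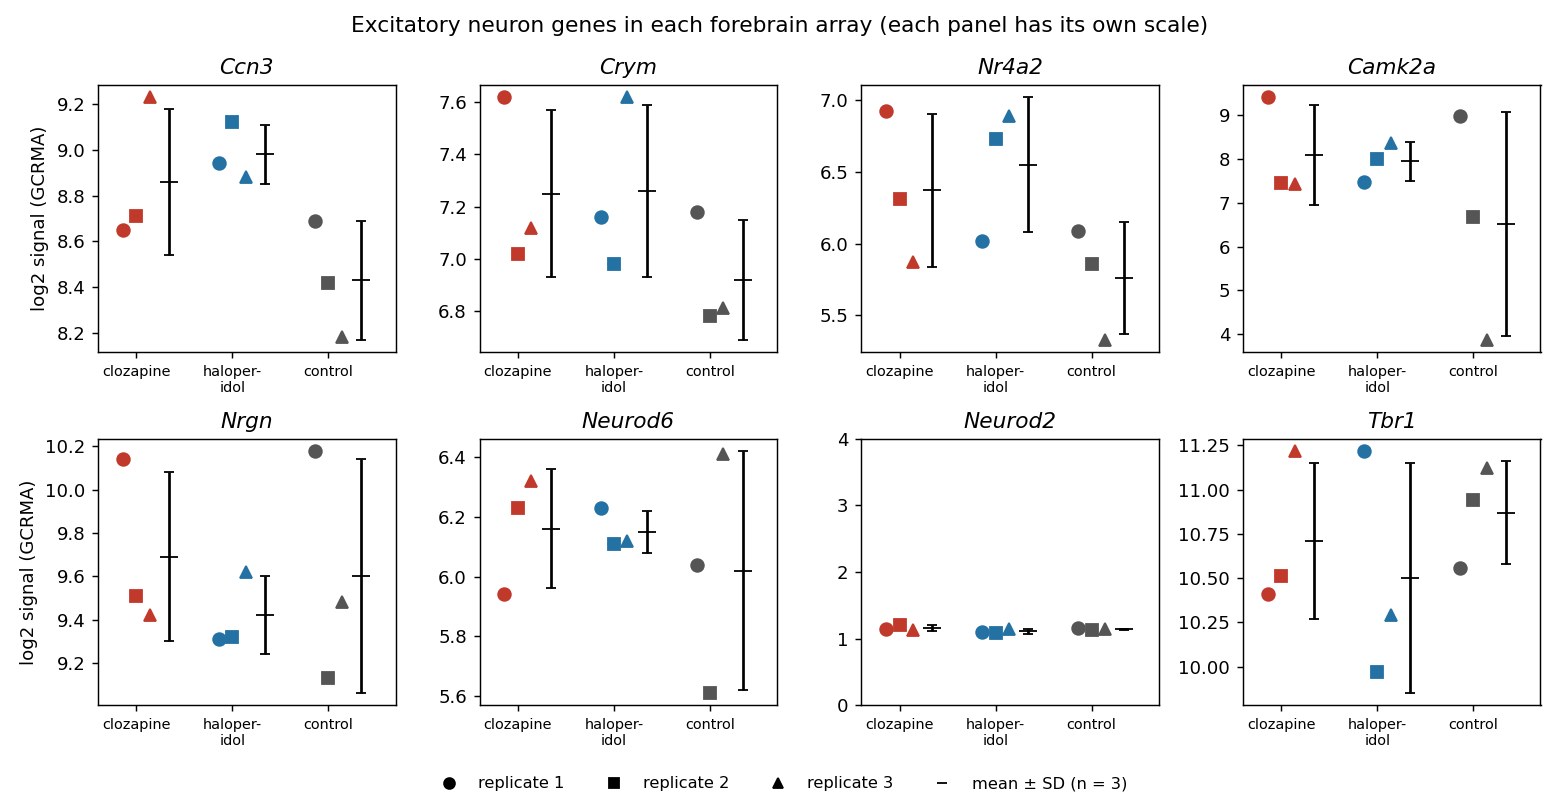
Log2 signal (GCRMA, vertical axis) of the 8 genes in each array, with clozapine, haloperidol and control from left to right; symbols give the replicate number and black bars the mean and SD of 3 arrays. Camk2a spans from 3.87 in control replicate 3 to 9.42 in clozapine replicate 1, haloperidol arrays lie above all controls for Ccn3, and Neurod2 stays near 1.

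Of the transcription factors, Nr4a2 had the highest drug means relative to control. Nr4a2, also known as Nurr1, is an orphan nuclear receptor that is induced by neuronal activity, marks deep cortical layers and the claustrum, and is needed for midbrain dopamine neurons. Its main probe set read 6.92, 6.31 and 5.87 in clozapine arrays and 6.02, 6.73 and 6.89 in haloperidol arrays, against 6.09, 5.86 and 5.33 in control arrays. Control replicate 3 was the lowest array, and each drug group overlapped the controls through 1 array, clozapine replicate 3 or haloperidol replicate 1. The difference was 0.61 ± 0.33 log2 units (SE, n = 3 per group) with clozapine, with a limma adjusted p of 1, and 0.79 ± 0.33 with haloperidol, with an adjusted p of 0.53. The order of the group means was haloperidol, clozapine and control, and the 95% intervals of both differences between neighbours held 0 (-0.95 to 0.59 for clozapine minus haloperidol and -0.16 to 1.38 for clozapine minus control). The interval of haloperidol minus control, not adjusted for the number of probe sets, was 0.02 to 1.56, and -0.24 to 1.39 without control replicate 3.

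A second Nr4a2 probe set, of lower signal, read 5.36, 4.75 and 4.84 in clozapine arrays, 5.03, 4.75 and 5.61 in haloperidol arrays and 4.84, 4.82 and 4.51 in control arrays. It gave smaller differences of the same sign, 0.26 ± 0.24 with clozapine and 0.40 ± 0.24 with haloperidol. The 2 probe sets share a source sequence in the annotation and correlated at a Pearson r of 0.741 over the 9 arrays. Without control replicate 3 the main probe set gave 0.40 ± 0.35 and 0.57 ± 0.35. The related activity-induced receptor Nr4a1 lay 0.17 ± 0.29 above the controls with clozapine and 0.14 ± 0.29 with haloperidol, or 0.45 and 0.42 without control replicate 3.

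Tbr1 was the only member with lower means than control under both drugs. It is a T-box factor of early-born projection neurons in the deep cortical layers and is also found in mitral cells of the olfactory bulb. It read 10.41, 10.51 and 11.22 in clozapine arrays and 11.22, 9.97 and 10.29 in haloperidol arrays, against 10.56, 10.94 and 11.12 in control arrays. High values occurred in every group, so the groups overlapped, and the means ran from control over clozapine to haloperidol within their error. The differences were -0.16 ± 0.35 with clozapine (95% interval -0.96 to 0.64) and -0.38 ± 0.35 with haloperidol (-1.18 to 0.42). Across the 9 arrays Tbr1 ran opposite to Nr4a2, with r = -0.825 (Pearson) and rho = -0.783 (Spearman), and r was again -0.825 over 8 arrays without control replicate 3. These correlations describe points from the same arrays and are given with no test.

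Neurod6, a basic helix-loop-helix factor of pyramidal neurons closely related to Neurod2, was the steadiest of the 7 tested members. It read 5.94, 6.23 and 6.32 in clozapine arrays and 6.23, 6.11 and 6.12 in haloperidol arrays, against 6.04, 5.61 and 6.41 in control arrays. The controls held both the lowest and the highest array, and the drug arrays lay between them. The differences were 0.14 ± 0.19 with clozapine and 0.13 ± 0.19 with haloperidol. Without control replicate 3, the highest array, they were 0.33 ± 0.16 and 0.32 ± 0.16. Its relative Neurod1 lay at -0.03 ± 0.14 with clozapine and -0.18 ± 0.14 with haloperidol.

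Camk2a varied far more than any other member. It encodes the alpha subunit of CaM kinase II, which is made in forebrain excitatory neurons and whose messenger RNA also travels into dendrites. Its main probe set read 9.42, 7.45 and 7.44 in clozapine arrays and 7.48, 8.01 and 8.36 in haloperidol arrays, against 8.99, 6.68 and 3.87 in control arrays. The highest array was 46.7 times the lowest, and control replicate 3 alone lay 2.81 log2 units under the next lowest array. Only 9 of 7453 probe sets had a larger SD over the 9 arrays, which was 1.61 for Camk2a and 0.20 for the median probe set. A second Camk2a probe set, with an SD of 1.66, was among the 9. The second probe set gave the same picture, with 8.63, 6.80 and 6.38 in clozapine arrays, 6.73, 7.50 and 7.33 in haloperidol arrays and 8.29, 5.95 and 2.96 in control arrays (r = 0.994 between the 2 over 9 arrays). Its annotated source sequence differs from that of the first.

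The differences of Camk2a between treatments were accordingly wide. With clozapine the mean lay 1.59 ± 1.16 log2 units above control (95% interval -1.09 to 4.26, limma adjusted p = 1) and with haloperidol 1.43 ± 1.16 above (-1.24 to 4.11, adjusted p = 0.728). Control replicate 3 decided these values: without it they were 0.26 ± 0.80 and 0.11 ± 0.80. Without control replicate 1, the high one, they were 2.82 and 2.67. Between the drugs the difference was 0.15 ± 1.16, with an error pooled over all 9 arrays, and 0.15 ± 0.72 without control replicate 3. Astrocyte markers, 7 of 9 on the array and all 7 above the filter, had their highest average in control replicate 3. Their average log2 signal was 8.74 to 8.93 in clozapine arrays and 8.66 to 8.87 in haloperidol arrays, against 8.73, 8.82 and 9.42 in control arrays, and their summed linear signal was 6370 to 7490, 5630 to 6860 and 6060 to 8890. Glul, glutamine synthetase, carried much of this, at 10.31 in control replicate 3 and 6.42 to 8.54 in the other arrays. Gfap, Gja1 and S100b were also at their highest there, at 8.16, 12.11 and 8.85. So was Slc1a2, at 6.25 against 6.24 in haloperidol replicate 2, while Aldoc and Aqp4 were not. The part of these markers in the Camk2a values was not tested. In whole tissue, fewer cells of a type and less RNA per cell cannot be told apart.

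**Figure D2:**
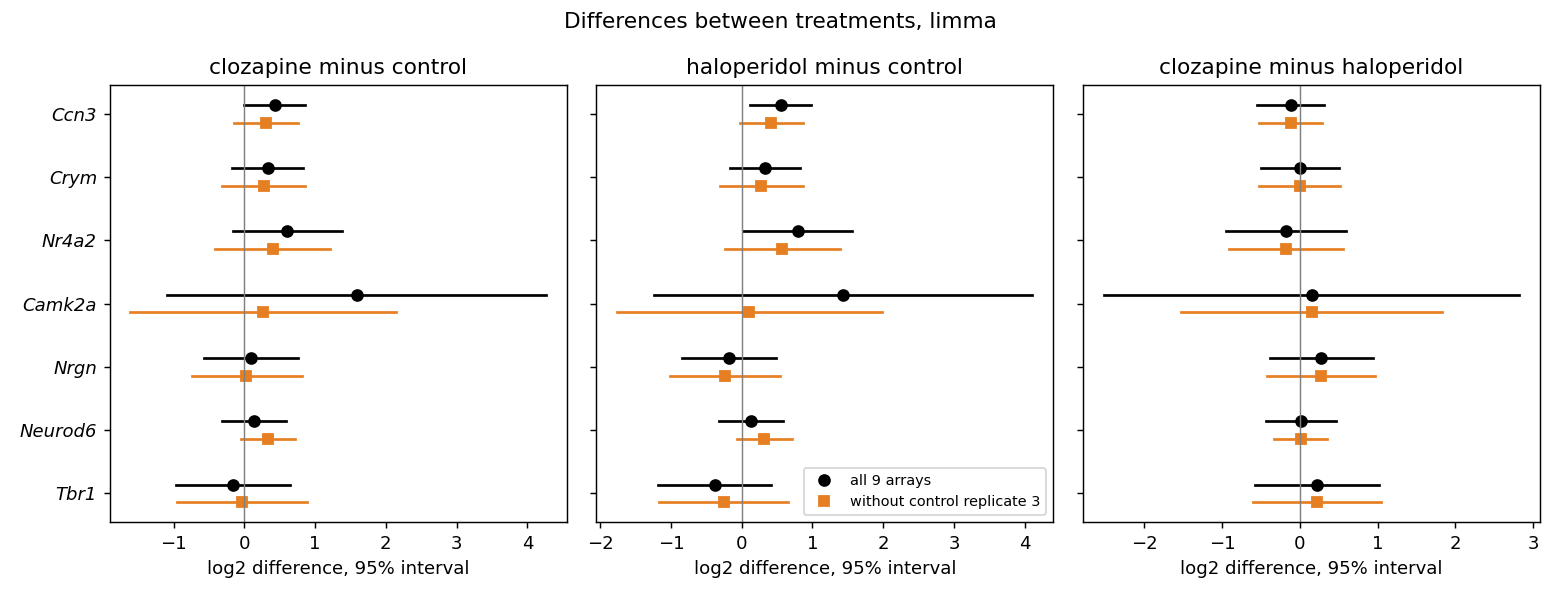
Differences of log2 signal between treatments (horizontal axis, with 95% intervals from limma) for the 7 tested genes, from all 9 arrays (black circles) and without control replicate 3 (orange squares). Without that array the Camk2a difference moves to 0.26 with clozapine and 0.11 with haloperidol. Those of Ccn3, Crym, Nr4a2 and Neurod6 against control also stay above 0, but the intervals of all 7 genes against control then hold 0.

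Nrgn, neurogranin, holds calmodulin in dendritic spines when calcium is low and is a substrate of protein kinase C. It read 10.14, 9.51 and 9.42 in clozapine arrays and 9.31, 9.32 and 9.62 in haloperidol arrays, against 10.18, 9.13 and 9.48 in control arrays. Clozapine replicate 1 and control replicate 1 stood above the other 7 arrays, as they did for Camk2a, so the high values did not follow treatment. The differences were 0.09 ± 0.29 with clozapine (95% interval -0.57 to 0.76), -0.18 ± 0.29 with haloperidol (-0.84 to 0.48) and 0.27 ± 0.29 between clozapine and haloperidol (-0.39 to 0.94). Over the 8 arrays without control replicate 3, Nrgn and Camk2a correlated at r = 0.922, against 0.561 over all 9. In that array Camk2a was at its lowest while Nrgn, at 9.48, lay within the range of the rest.

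Other genes of calmodulin signalling were about evenly divided. Of 23 such genes listed, 13 were tested, with 7 above and 6 below the controls with either drug, 0 called in either direction and medians of 0.00 and 0.04. Without control replicate 3, 4 of 13 lay above with either drug. Camk2b, the beta subunit of the same kinase, ranged over only 0.50 log2 units across the arrays and lay at -0.09 ± 0.14 with clozapine and -0.20 ± 0.14 with haloperidol. Camk2d, the delta subunit, read 3.85 in control replicate 3, its lowest array, and lay 0.51 ± 0.44 above control with clozapine and 0.47 ± 0.44 with haloperidol, or 0.14 and 0.10 without that array. Gap43, a growth cone protein that binds calmodulin through the same kind of motif as Nrgn, lay at -0.03 ± 0.11 and 0.10 ± 0.11. Pcp4, another calmodulin binder, lay at -0.03 ± 0.09 and -0.16 ± 0.09, and its haloperidol arrays, at 4.12, 4.12 and 3.93, lay below all controls, at 4.17, 4.26 and 4.22. Its signal was low, and 19.4% of tested probe sets had haloperidol arrays wholly below the controls. The median signal of all probe sets was 4.06, 4.06 and 4.01 in haloperidol arrays, against 4.15, 4.19 and 4.11 in control arrays. The part of this offset in the Pcp4 values was not tested. Ppp3ca, the catalytic subunit of calcineurin, lay 0.30 ± 0.21 and 0.32 ± 0.21 above, or 0.35 and 0.36 without control replicate 3. Prkca, a protein kinase C, lay at -0.10 ± 0.10 with clozapine and -0.06 ± 0.10 with haloperidol.

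Ccn3, formerly Nov, was the only member whose groups did not overlap in a comparison. It is a secreted protein of the extracellular matrix from the CCN family. It read 8.65, 8.71 and 9.23 in clozapine arrays and 8.94, 9.12 and 8.88 in haloperidol arrays, against 8.69, 8.42 and 8.18 in control arrays. All 3 haloperidol arrays lay above all controls, whereas clozapine replicate 1 lay just under control replicate 1. Among the tested probe sets, the haloperidol arrays lay wholly above the controls in 2.29% and wholly below in 19.4%. For clozapine the shares were 1.27% and 2.16%, and between clozapine and haloperidol 15.2% and 1.96%, with 0 of 7 members in each of these.

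The Ccn3 difference was 0.55 ± 0.19 log2 units with haloperidol, a fold of 1.46 (95% interval 0.12 to 0.98, limma adjusted p = 0.53), and 0.43 ± 0.19 with clozapine, a fold of 1.35 (adjusted p = 1). Neither passed over all probe sets. Without control replicate 3, the lowest array, they were 0.42 ± 0.19 and 0.31 ± 0.19. The drugs differed by -0.12 ± 0.19 (95% interval -0.55 to 0.31). Of the other CCN genes 4 of 5 were tested, with 1 above control with clozapine and 2 with haloperidol, 0 called and medians of -0.03 and 0.03. Ccn2, another secreted matrix protein, lay 0.20 ± 0.14 above control with clozapine and 0.36 ± 0.14 with haloperidol. Ccn1 lay at -0.05 ± 0.13 with clozapine and -0.29 ± 0.13 with haloperidol, Ccn4 at -0.13 ± 0.28 and 0.23 ± 0.28, and Ccn5 at -0.01 ± 0.09 and -0.17 ± 0.09. The haloperidol arrays of Ccn1 and Ccn5 lay below all controls, as was so for 19.4% of tested probe sets. Ccn1, Ccn4 and Ccn5 each had a low signal. The clozapine values were -0.13 for Ccn1 and -0.03 for Ccn4 without control replicate 3.

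Crym, mu-crystallin, binds thyroid hormone in the cytosol and is abundant in cortical and hippocampal neurons. It read 7.62, 7.02 and 7.12 in clozapine arrays and 7.16, 6.98 and 7.62 in haloperidol arrays, against 7.18, 6.78 and 6.81 in control arrays. A single array of each drug group stood high, clozapine replicate 1 and haloperidol replicate 3, and the groups overlapped at control replicate 1. The differences were 0.33 ± 0.22 with either drug (95% interval -0.17 to 0.83 for both), and the means of the drugs, 7.25 with clozapine and 7.26 with haloperidol, had a difference with an interval of -0.50 to 0.50. Haloperidol replicate 3 was also the only array with high signals of the pituitary hormone genes Gh, Prl, Pomc, Cga and Tshb. Gh, growth hormone, read 12.57 there and 1.07 and 1.28 in the other haloperidol arrays. The whole list of hypothalamic and pituitary markers had 9 of 10 genes on the array, and of these Avp and Prl averaged above the filter, Prl through that array. The hypothalamic genes Avp, Oxt, Hcrt and Trh were not at their highest in that array. The summed linear signal of the list was 11200 there and 123 to 142 in the other haloperidol arrays, against 130 to 190 in clozapine and 118 to 131 in control arrays. The part of these genes in the values of that array was not tested. Without haloperidol replicate 3 the haloperidol difference was 0.15 for Crym, 0.61 for Nr4a2 and 0.60 for Ccn3.

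Genes of thyroid hormone handling gave no common course beside Crym. Of 12 listed 6 were tested, with 2 above and 4 below the controls with either drug, 0 called and medians of -0.11 with clozapine and -0.07 with haloperidol. Rxrb, a partner of the thyroid hormone receptor, lay at -0.20 ± 0.11 with clozapine and -0.26 ± 0.11 with haloperidol, with both drug groups below all controls. Of all tested probe sets, 2.16% lay wholly below the controls with clozapine and 19.4% with haloperidol. Dio2, which converts thyroid hormone to its active form in astrocytes, lay at -0.22 ± 0.23 and -0.28 ± 0.23, and the hormone-induced factor Klf9 at 0.42 ± 0.41 and 0.35 ± 0.41.

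Nr4a2, Camk2a, Nrgn, Crym and Ccn3 were lower in arrays whose RNA leaned further to the 3' end. The lean was read from Actb and Gapdh as the signal of the 3' control probe set minus that of the 5' one, averaged over both genes. It was 0.892, 1.13 and 1.14 log2 units in clozapine arrays and 1.30, 0.868 and 0.814 in haloperidol arrays, against 0.882, 1.46 and 1.73 in control arrays. The gap thus differed between arrays of 1 treatment and was greatest in 2 of the 3 controls. Over the 9 arrays its Pearson r was -0.914 with Camk2a, -0.868 with Nr4a2, -0.723 with Crym, -0.624 with Ccn3, -0.53 with Nrgn, 0.159 with Neurod6 and 0.754 with Tbr1. Without control replicates 2 and 3, the arrays farthest from the median gap, it was -0.734 with Camk2a, -0.728 with Nr4a2, -0.478 with Crym, 0.234 with Ccn3, -0.536 with Nrgn, 0.743 with Neurod6 and 0.825 with Tbr1. The negative r of Ccn3 thus rested on those arrays and that of Crym became weaker, whereas Neurod6 had a clearly positive r only without them. Of all tested probe sets, 25.2% had an r under -0.5 and 23.3% an r above 0.5, and 0.429% had one lower than that of Camk2a. Each point of these correlations is 1 array, with its own RNA quality and normalization, and they are given as descriptions.

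**Figure D3:**
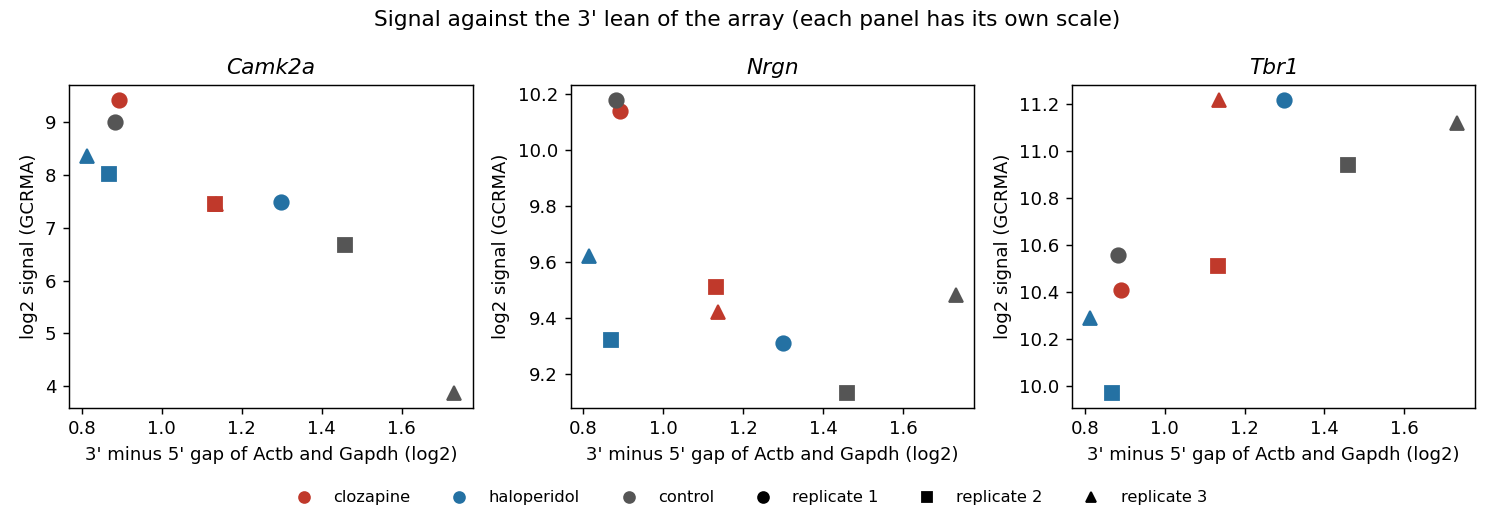
Log2 signal of Camk2a, Nrgn and Tbr1 (vertical axes) against the 3' minus 5' gap of Actb and Gapdh (horizontal axis, log2 units), 1 point per array; colour gives the treatment and shape the replicate. Camk2a is lowest at the largest gap, 1.73 in control replicate 3, the 4 highest Tbr1 arrays have gaps of at least 1.14, and in the Camk2a panel clozapine replicates 2 and 3 lie on top of each other.

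With the gap as a covariate in the limma fit, the Camk2a difference was 0.11 with clozapine and -0.33 with haloperidol. Nr4a2 was 0.23 and 0.34 in that fit, Crym 0.15 and 0.12, and Ccn3 0.33 and 0.43. Nrgn was -0.20 and -0.53, Neurod6 0.24 and 0.25, and Tbr1 0.20 and 0.0463. Ccn3 thus kept the larger part of its difference with both drugs, and Camk2a did not. The gap and treatment are partly tied in these arrays, since control replicates 2 and 3 have the largest gaps, although control replicate 1, at 0.882, has one of the smallest.

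**Figure D4:**
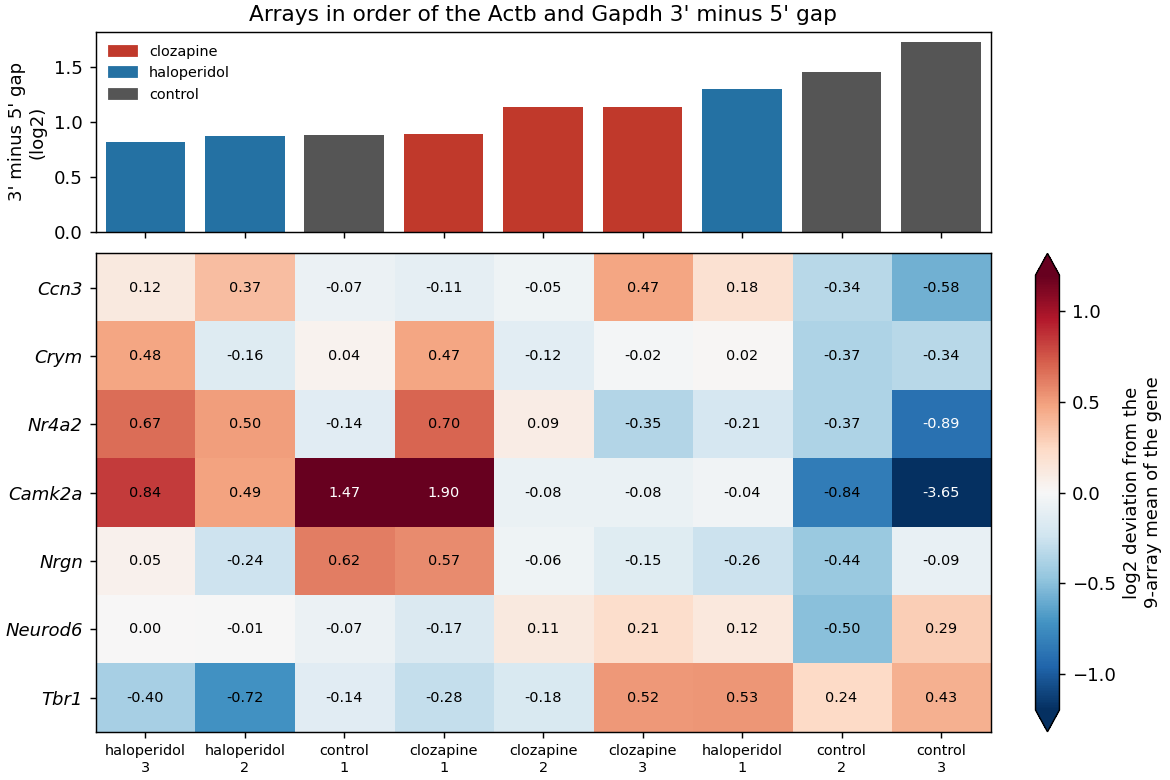
Upper panel: 3' minus 5' gap of Actb and Gapdh (log2 units) in the 9 arrays, ordered by the gap. Lower panel: deviation of each of the 7 tested genes from its own 9-array mean (log2 units, red above and blue below, colours capped at 1.2); Camk2a lies at -3.65 in control replicate 3 and at 1.90 in clozapine replicate 1.

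The members did not form a single group across the arrays. Crym followed Nr4a2 at r = 0.757 and Camk2a at r = 0.719 over 9 arrays, and at 0.702 and 0.767 without control replicate 3. Ccn3 followed Neurod6 at r = 0.217 over 9 arrays and 0.791 without control replicate 3, where Neurod6 was highest and Ccn3 lowest. Clozapine replicate 1 had the highest median deviation over the 7 members, 0.47, and control replicates 2 and 3 the lowest, -0.37 and -0.34. The mean in control replicate 3, -0.69, was carried by Camk2a at -3.65. The SD over 9 arrays was larger than that of 61.5% of tested probe sets for Neurod6 and of 76.7% to 99.9% for the other 6. The first principal component of all tested probe sets held 50.1% of their variance. Control replicate 3 lay at 37.51 on it, and clozapine replicate 1, haloperidol replicate 3 and control replicate 1 at -17.61, -19.75 and -19.63. Its r was -0.932 with Camk2a, -0.749 with Nr4a2, -0.739 with Crym, -0.565 with Nrgn, -0.344 with Ccn3, 0.522 with Neurod6 and 0.538 with Tbr1. Its source was not tested.

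The genes most like each member over the 9 arrays were found among all tested probe sets with 1 gene symbol. Camk2a was matched most closely by Pnkd, at r = 0.992, by Maf1 at 0.978 and by the synaptic vesicle gene Vamp2 at 0.975, and these were 0.974, 0.93 and 0.91 without control replicate 3. Nrgn was matched by Dctn3 at 0.893, by the vesicle protein gene Syp at 0.891 and by Tagln3 at 0.877. A high r does not mean changes of like size. Vamp2 ranged over 0.43 log2 units across the 9 arrays, against 5.55 for Camk2a. Syp ranged over 0.77, against 1.06 for Nrgn. Nr4a2 was matched by Lancl1 at 0.965, Ctr9 at 0.952 and Phb2 at 0.95, and Crym by Bcas3 at 0.96, Sparc at 0.942 and Nup85 at 0.941. Ccn3 was matched by the tight junction gene Tjp1 at 0.939, the clock gene Per2 at 0.922 and Prelid3b at 0.905, and r with Per2 was 0.943 without control replicate 3. Neurod6 was matched by Ctps2 at 0.946, Hnrnpr at 0.921 and Ube2v2 at 0.915. Tbr1 was matched by Strn at 0.986, the integrin gene Itgav at 0.983 and the ephrin receptor gene Epha7 at 0.975. Each gene was among the best of the tested probe sets of 5650 genes over 9 points, and the arrays are shared.

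Other transcription factors of cortical layers and regions were about evenly divided. Of 39 listed 16 were tested, with 8 above and 8 below the controls with either drug, 0 called in either direction, and medians of -0.00 with clozapine and 0.04 with haloperidol. Mef2c, an activity-dependent factor of excitatory neurons, lay 0.23 ± 0.16 above control with clozapine and 0.42 ± 0.16 with haloperidol, and its haloperidol arrays, at 9.60, 9.61 and 10.01, lay above all controls, at 9.55, 9.34 and 9.07. The Mef2c differences were 0.10 with clozapine and 0.29 with haloperidol without control replicate 3. Mef2a, of the same family, lay 0.05 ± 0.08 above with clozapine and 0.25 ± 0.08 above with haloperidol, again with no overlap for haloperidol. Haloperidol arrays lay wholly above the controls in 2.29% of tested probe sets. Foxp1, which is found in cortical and striatal neurons, lay at -0.21 ± 0.16 with clozapine and -0.29 ± 0.16 with haloperidol. Its haloperidol arrays, at 6.52, 6.24 and 6.35, lay below all controls, at 6.56, 6.86 and 6.58, as was so for 19.4% of tested probe sets. Ldb2 lay at -0.20 ± 0.18 with clozapine and -0.33 ± 0.18 with haloperidol. The limma adjusted p was 1 for each clozapine value named here, and with haloperidol it was 0.53 for Mef2c and Mef2a, 0.576 for Foxp1 and 0.579 for Ldb2.

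In a list of glutamate vesicle and synaptic genes of pyramidal cells, the signs depended on control replicate 3. No vesicular glutamate transporter was among the genes tested. Of 29 listed 18 were tested, with 13 above control with clozapine and 10 with haloperidol, medians of 0.07 and 0.09, and 0 called. Without control replicate 3 there were 5 and 3 above, with medians of -0.17 and -0.21. Rgs4, a brake on G protein signalling, lay 0.52 ± 0.61 above control with clozapine and at -0.19 ± 0.41 without that array, in which it read 6.24 against 8.71 and 8.02 in the other controls. Rasgrf1, a calcium-activated Ras exchange factor, lay 0.21 ± 0.22 above with clozapine and 0.33 ± 0.22 with haloperidol, and 0.19 and 0.31 without it. Nptx2, a secreted synaptic pentraxin, lay at -0.18 ± 0.21 with clozapine and 0.02 ± 0.21 with haloperidol. Slc1a1, a neuronal glutamate transporter, lay at 0.04 ± 0.15 and 0.23 ± 0.15, and Rasgrf2 at 0.02 ± 0.11 and -0.11 ± 0.11. Of genes linked to Tbr1, only Reln and Cask were tested, of 8 listed. Reln, the secreted guide of cortical layering and a target of Tbr1, lay at -0.12 ± 0.21 with clozapine and 0.20 ± 0.21 with haloperidol, and Cask, a binding partner of Tbr1, at -0.04 ± 0.19 and 0.04 ± 0.19. Reln lay at -0.00 with clozapine and 0.32 with haloperidol without control replicate 3, and Cask at -0.14 and -0.06.

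Between clozapine and haloperidol the members had 4 of 7 means higher with clozapine, at a median of 0.01 log2 units, where 56.4% of all tested probe sets were higher and their median was 0.03. The largest differences were 0.27 ± 0.29 for Nrgn, 0.22 ± 0.35 for Tbr1 (95% interval -0.58 to 1.02) and -0.18 ± 0.33 for Nr4a2 (-0.95 to 0.59). Neurod6 differed by 0.01 ± 0.19 (-0.44 to 0.46) and Camk2a by 0.15 ± 1.16 (-2.52 to 2.82), or -1.53 to 1.83 without control replicate 3, which widens the pooled error. A p that misses the threshold does not show that the drugs act alike on these genes.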

How the data were processed

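RNA of 9 forebrains was hybridised to Affymetrix U74Av2 arrays, 3 per treatment, and arrays were grouped by their titles. The deposited values are log2 signals per probe set, which the authors obtained by GCRMA according to the submitters' processing notes. GCRMA corrects background from probe sequence, normalises the arrays and summarises probes, and pulls unexpressed probe sets to a narrow floor. Its version is not given in the sources used here. The number of arrays limits the precision.

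Of 12488 probe sets, 66 Affymetrix controls entered no test. Of the other 12422, 10833 had 1 symbol, 396 several and 1193 none, and 10817 were given current symbols by matching Entrez identifiers to the RefSeq table of GRCm38.p6. Probe sets averaging above the 40th percentile, 3.448, were tested, which left 7453. Limma 3.58.1 in R 4.3.3 was fitted to all 9 arrays with 1 mean per treatment (lmFit, eBayes, two-sided). Benjamini-Hochberg adjustment ran over all 7453, and the threshold was 0.05. The fitting code was run on simulated data with known changes and independent noise for each probe set. Such data lack the variation that many probe sets share in these arrays, so the run does not try the fit on it. For a gene with several probe sets, the one of highest average stood for it. Named genes were the members, the 3 genes of lowest p of each wider list in each drug against control, members of the same families and the 3 genes most like each member. The members and lists were chosen with earlier results of these data known. Nothing says that arrays were processed in batches. Alternatives covered the filter, a floor, scaling, prior, array weights, arrays in the fit, the replicate number as a block, the 3' to 5' gap, the threshold, the choice of probe set and each array left out.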

Additional observations from a re-analysis of the deposited data

How the results depend on the processing

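Limma called no member in any of the 3 comparisons under the 21 alternatives and no probe set under all of these but the mean over probe sets, where none were counted, including the threshold of 0.10 and the fit with replicate block, which called 0 of 7453 probe sets. The labels do not say that numbers pair the arrays, and the deviations of same-numbered arrays correlated at -0.597 to 0.697, with 3 of 9 pairs over 0.1, so they were not taken as pairs; 5 of 9 arrays correlated best with an array of their own number. Of 441 recomputed member values, 414 kept their sign and 27 did not, in 12 of 21 member comparisons, and the cause was not tested. Many alternatives could not move a member's difference, so these counts and those below overstate how far the signs were tried. Such were the filter, floor, prior, threshold, replicate block, the fit to the compared arrays only and an array left out of the group not compared. Ccn3, Crym, Nr4a2 and Camk2a kept a positive value with clozapine under all 21 alternatives, at 0.25 to 0.56, 0.15 to 0.48, 0.23 to 0.86 and 0.11 to 2.82. With haloperidol, Ccn3, Crym and Nr4a2 did so at 0.42 to 0.68, 0.12 to 0.47 and 0.34 to 1.05. With the 3' to 5' gap as a covariate, values turned to -0.20 for Nrgn and 0.20 for Tbr1 with clozapine, to -0.33 for Camk2a and 0.0463 for Tbr1 with haloperidol, and to 0.0346 for Crym and -0.0101 for Neurod6 between the drugs, and the members' median was 0.12 with haloperidol. Array weights gave 0.23 for Nrgn and a median of 0.50 with haloperidol, and 0.0326 for Crym between the drugs. Centring each array on its median gave -0.0895 for Neurod6 and a median of -0.09 between the drugs, and quantile normalization 0.0272 for Crym. Centring also moved each member's difference of haloperidol from control upward, to 0.65 for Ccn3, 0.44 for Crym and -0.27 for Tbr1.

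With each array left out in turn, Nrgn ranged from -0.14 to 0.39 and Neurod6 from -0.0634 to 0.33 with clozapine. With haloperidol Nrgn ranged from -0.41 to 0.11, Neurod6 from -0.073 to 0.32 and the median from 0.15, without haloperidol replicate 3, to 0.47. Between the drugs the ranges were -0.18 to 0.18 for Crym, -0.45 to 0.0714 for Nr4a2, -0.51 to 0.48 for Camk2a, -0.07 to 0.12 for Neurod6, -0.0426 to 0.58 for Tbr1 and -0.05 to 0.12 for the median, which was 0.12 without clozapine replicate 2 or haloperidol replicate 3.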

Other observations

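Markers of other cell types were read in the same arrays as values only, averaged over all list genes on the array, each by its brightest probe set. GABAergic interneuron markers, 11 of 11 above the filter, averaged 7.22 to 7.66 log2 units in clozapine arrays and 7.41 to 7.67 in haloperidol arrays, against 7.32 to 7.69 in controls. Striatal projection neuron markers, 5 of 6 on the array above the filter, averaged 6.77 to 6.84 and 6.72 to 6.86, against 6.74 to 6.87. Oligodendrocyte markers, 7 of 8, averaged 8.35 to 8.51 and 8.28 to 8.36, against 8.26 to 8.53. Microglial markers, 5 of 8, averaged 5.84 to 5.94 and 5.81 to 5.93, against 5.73 to 6.05, and endothelial markers, 5 of 6, 5.12 to 5.38 and 5.11 to 5.38, against 5.33 to 5.60. Choroid plexus and ependymal markers, 5 of 5, averaged 6.45 to 6.79 and 6.48 to 6.85, against 6.65 to 6.75, and blood markers, 1 of 2, 6.14 to 6.66 and 5.59 to 6.22, against 6.29 to 6.41. The excitatory markers themselves averaged 7.24 to 7.61 and 7.13 to 7.38, against 6.60 to 7.65 in controls, with the low end in control replicate 3. That list holds 5 members, and in that array Camk2a read 3.87 against at least 6.68 elsewhere.

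Regional markers also varied between arrays of the same treatment. Hippocampal markers, 5 of 7 above the filter, averaged 6.42 to 6.55 in clozapine arrays and 6.39 to 6.54 in haloperidol arrays, against 6.23 to 6.70 in controls, and thalamic markers, 4 of 5, 5.80 to 6.11 and 5.93 to 6.09, against 5.66 to 6.04. Both lists were lowest in control replicate 3. Olfactory bulb markers, 5 of 6, averaged 4.55, 3.87 and 3.96 in clozapine arrays and 4.79, 4.35 and 4.30 in haloperidol arrays, against 3.86, 4.71 and 4.57 in controls. Tbr1, which is also found in that region, was high in haloperidol replicate 1 and control replicates 2 and 3, where this list was high, and in clozapine replicate 3, where it was low. In clozapine replicate 1 the list was high and Tbr1, at 10.41, was not. The part of the olfactory bulb in the Tbr1 values was not tested.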
